A study of Bubalus bubalis with 9 samples.

Results

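D cyclins, their G1 kinases and the CIP/KIP inhibitors are the genes that set whether a cell leaves G1 for another round of division. The 9 genes described here were set by name, with earlier results of these data known. They are the D cyclins CCND1, CCND2 and CCND3, the kinases CDK2, CDK4 and CDK6, and the inhibitors CDKN1A, CDKN1B and CDKN1C. These inhibitors encode p21, p27 and p57. The lists of related genes used below were chosen with the same knowledge. All 9 were found among the 20801 genes listed, and all 9 carried a p-value in each of the 3 comparisons made by the authors. RNA had been sequenced from granulosa cells, the somatic cells around the oocyte, of ovarian follicles of Chinese buffalo (Bubalus bubalis). The labels give 3 healthy samples, 3 early atretic and 3 late atretic, with atresia being the degeneration that ends most follicles before ovulation. They state no breed beyond this, no age, no treatment, no follicle size, and not whether each sample is from another animal. The p-values therefore cover only the variation among the samples used in each comparison, and this may be technical.

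In textbook outline, D cyclins bind CDK4 and CDK6, and these complexes phosphorylate the retinoblastoma protein so that E2F factors can switch on the genes of S phase. CDK2, with E or A cyclins, carries the step further, and the CIP/KIP proteins bind cyclin-kinase complexes and can hold them inactive. In the mouse ovary cyclin D2 is the D cyclin induced by follicle-stimulating hormone in granulosa cells, and females that lack it have granulosa cells that divide poorly and are infertile.

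The values are the authors' group means of normalized read counts, 1 per group and comparison, with their log2 fold change, p-value and Benjamini-Hochberg adjusted p over all tested genes, and a gene was called at an adjusted p below 0.05. Summed over all genes the authors' deposited means came to between 13141820 and 14490733 normalized counts per group, and the depth of each library is unknown. An error written as ± is the standard error implied by the authors' deposited log2 fold change and p under a two-sided normal test, and intervals follow from it. The counts are not per length, so levels are compared between groups and not between genes. The 3 tables were scaled separately: at means above 1000 the ratio of a group's mean between 2 of the authors' deposited tables was 1.03 for healthy, 0.989 for early atretic and 0.952 for late atretic follicles in the median gene.

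In early atretic follicles 1 D cyclin fell, another rose, 2 of 3 CIP/KIP genes rose, and none of the 3 kinase genes was called in the authors' deposited table. CCND2 fell, and CCND3, CDKN1A and CDKN1C rose. These 4 called genes of 9 stand beside 12.9% of the 17386 genes tested in the authors' deposited table. By direction, 3 of 9 were higher, against 8.59% of all genes tested, and 1 of 9 was lower, against 4.35%, in the authors' deposited table. Higher genes made up 66.4% of all calls as deposited and 80.0% after the group means were scaled to equal totals, a shift of 0.11 on the log2 scale, and the same 4 of the 9 genes were called in the same directions. The authors' deposited table gave a median log2 fold change of -0.12 over the 9 genes and 0.02 over all genes tested. When late atretic follicles were set against healthy ones, CCND3 alone of the 9 was called, as higher, where 4.38% of 17366 tested genes were called, 3.98% as higher and 0.397% as lower, in the authors' deposited table. Between late and early atretic follicles 0 of 9 were called, where 0.108% of 17552 genes were, in the authors' deposited table. At an unadjusted p below 0.05 the 3 comparisons held 5, 3 and 1 of the 9 in the authors' deposited tables, against 23.6%, 12.2% and 5.36% of all genes tested. Both comparisons with healthy follicles use the same healthy samples, so their values are set side by side without a measure of their likeness.

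**Figure D1:**
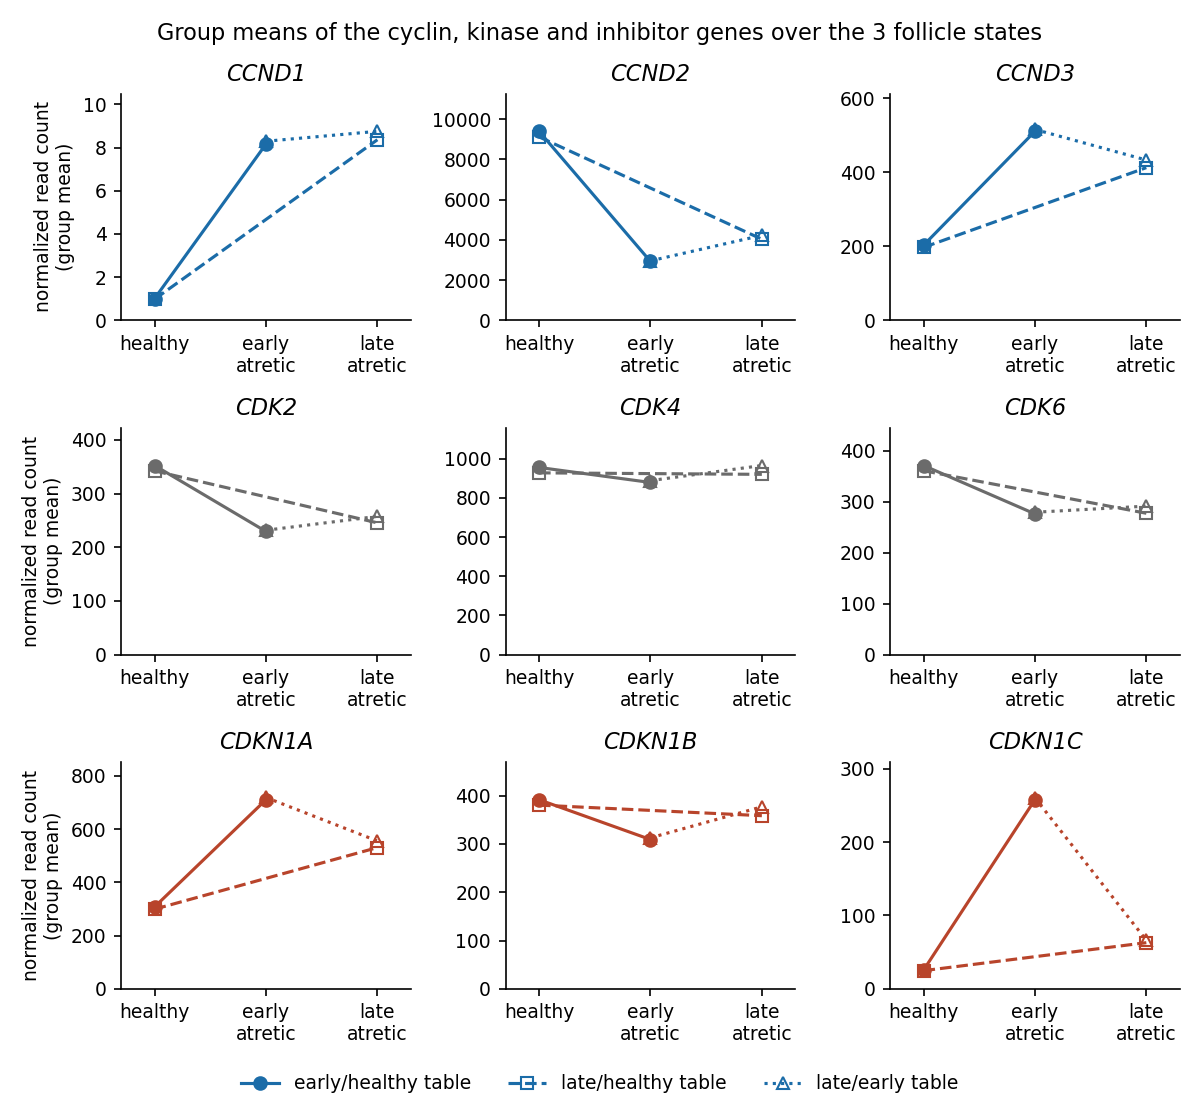
Mean normalized read count (vertical axis, linear from 0, own scale per gene) of each gene in healthy, early atretic and late atretic follicles, as deposited; each line joins the 2 groups of 1 of the authors' 3 tables, and blue, grey and red mark D cyclins, kinases and inhibitors. CCND2 is lowest in early atretic follicles at 2928, against 9396 in healthy ones, and CDKN1C peaks there at 258, against 25.4 in healthy ones.

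CCND2 encodes cyclin D2, and its mean was 2928 normalized counts in early atretic follicles against 9396 in healthy follicles in the authors' deposited table. The log2 fold change was -1.68 ± 0.48 in the authors' deposited table, with an implied 95% interval of 0.162 to 0.598 for the fold and an adjusted p of 0.0065. In late atretic follicles the mean was 4034, against 9119 in healthy follicles, in the authors' deposited table of that comparison. That log2 fold change of -1.18 ± 0.57 did not pass, with a p of 0.039 and an adjusted p of 0.355 in the authors' deposited table. Late atretic follicles stood at 4224 against 2959 in early atretic ones in the authors' deposited table that sets them against each other. Their log2 difference of 0.51 ± 0.58 missed the threshold in the authors' deposited table (adjusted p = 0.997), with an interval for the fold from 0.646 to 3.16. The means thus run from healthy as the highest through late to early atretic as the lowest, and of the 3 steps only early atretic against healthy passed in the authors' deposited tables. The labels give bulk samples, in which fewer cells of a type and less RNA per cell cannot be told apart.

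CCND3, which encodes cyclin D3, went the other way and was the 1 member called in both comparisons with healthy follicles. Its mean was 510.5 normalized counts in early atretic and 202.8 in healthy follicles in the authors' deposited table. The log2 fold change of 1.33 ± 0.25 had an adjusted p of 4.0e-06 and an interval for the fold of 1.80 to 3.52 in the authors' deposited table. In late atretic follicles it had a mean of 412 against 197 in healthy follicles, a log2 fold change of 1.06 ± 0.26 with an adjusted p of 0.0021 in the authors' deposited table. Late and early atretic follicles, at 433 and 516, were not called apart, with a log2 difference of -0.25 ± 0.27 (adjusted p = 0.997) in the authors' deposited table. The healthy mean was the lowest of the 3, and the order of both atretic groups was not set beyond the error. Since lengths cancel in a change of ratio, CCND3 can be set against CCND2: relative to healthy follicles the CCND3 to CCND2 ratio in the authors' deposited means was 8.08 times higher in early and 4.73 times higher in late atretic follicles. This ratio carries no test, because both genes were read in the same samples and their covariance is unknown.

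CCND1, which encodes cyclin D1, was close to the limit of what these libraries can show. The authors' deposited means were 8.16 normalized counts in early atretic and 1.01 in healthy follicles, and 8.36 in late atretic and 0.98 in healthy follicles in the other table. On the tables' scale these means correspond to about 24 and 25 reads over 3 atretic samples, against about 3 reads over 3 healthy samples in the authors' deposited tables. The ratio of such reads was 8.0 with an exact 95% counting interval of 2.43 to 41.5 for early atretic over healthy, and 8.33 with 2.54 to 43.1 for late atretic over healthy, from the authors' deposited means. These intervals cover counting error only. The authors' deposited tests gave log2 fold changes of 2.98 ± 1.44 and 3.06 ± 1.44 with adjusted p of 0.177 and 0.326, so neither passed. Late and early atretic follicles had means of 8.75 and 8.29, with a log2 difference of 0.08 ± 1.02 (adjusted p = 0.999) in the authors' deposited table.

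**Figure D2:**
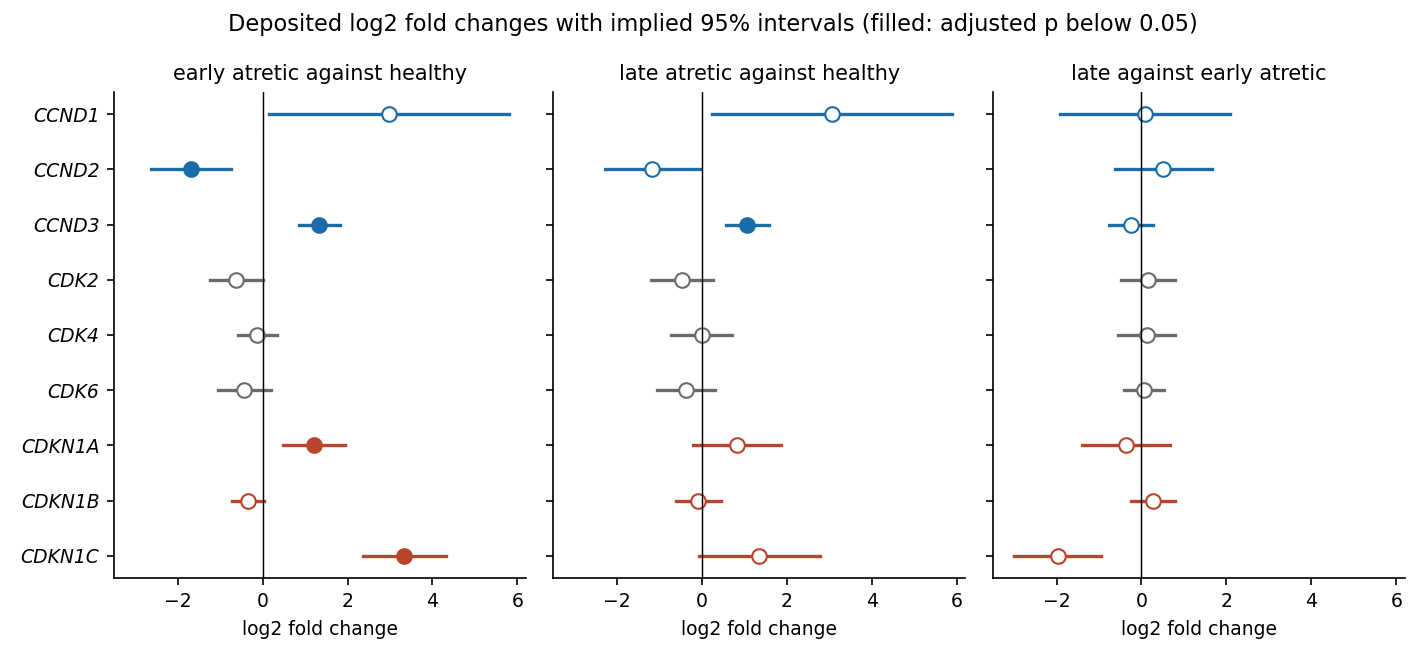
Log2 fold change (horizontal axis) of each gene in the 3 comparisons, as deposited, with 95% intervals implied by the deposited p; filled points passed an adjusted p of 0.05, and blue, grey and red mark D cyclins, kinases and inhibitors. The 4 filled points of early atretic against healthy are CCND2 at -1.68, CCND3 at 1.33, CDKN1A at 1.21 and CDKN1C at 3.34, and CCND3 at 1.06 is the filled point of late atretic against healthy.

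None of the 3 kinase genes passed in any comparison, and all 3 had lower means in early atretic than in healthy follicles, with log2 fold changes of -0.12 to -0.62 from the authors' deposited table. CDK4, a partner of the D cyclins, had means of 879 in early atretic and 955 in healthy follicles in the authors' deposited table. Its log2 fold change was -0.12 ± 0.23 (adjusted p = 0.873) in the authors' deposited table, with an interval for the fold of 0.668 to 1.26. CDK4 means were 920.2 in late atretic and 927.9 in healthy follicles in the authors' deposited table, with an interval for the fold of 0.598 to 1.64. CDK6, the other partner of the D cyclins, had means of 276 in early atretic and 371 in healthy follicles, a log2 fold change of -0.43 ± 0.32 (adjusted p = 0.463) in the authors' deposited table. In late atretic and healthy follicles CDK6 stood at 277 and 361, with a log2 fold change of -0.38 ± 0.35 (adjusted p = 0.865) in the authors' deposited table. CDK2, the kinase of E and A cyclins, was nearest to the threshold, at 229 in early atretic and 352 in healthy follicles, with a log2 fold change of -0.62 ± 0.32, a p of 0.052 and an adjusted p of 0.219 in the authors' deposited table. For late atretic follicles CDK2 had a mean of 245 against 342 in healthy follicles and a log2 fold change of -0.48 ± 0.37 (adjusted p = 0.766) in the authors' deposited table. Late over early atretic log2 differences of the 3 kinases lay between 0.06 and 0.15 in the authors' deposited table. The implied intervals of CDK2 and CDK6 in early atretic follicles reach folds of 0.422 and 0.484 at their lower ends in the authors' deposited table, so a loss of that size was within the error.

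The inhibitors differed from one another. CDKN1A, the p21 gene, had a mean of 710.3 in early atretic and 308 in healthy follicles in the authors' deposited table. It rose by 1.21 ± 0.37 on the log2 scale, with an adjusted p of 0.014 and an interval for the fold of 1.39 to 3.83 in the authors' deposited table. In late atretic follicles its mean was 530.4 against 299 in healthy follicles, and the log2 fold change of 0.83 ± 0.53 did not pass (adjusted p = 0.634) in the authors' deposited table. Late and early atretic follicles had 555 and 719, a log2 difference of -0.37 ± 0.53 (adjusted p = 0.997) in the authors' deposited table, so their order was within the error.

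CDKN1B, the p27 gene, was not called in any of the authors' deposited tables. Its means were 309 in early atretic and 392 in healthy follicles, a log2 fold change of -0.34 ± 0.20 with a p of 0.082 and an adjusted p of 0.293 in the authors' deposited table. For late atretic and healthy follicles the means were 359 and 381, with a log2 fold change of -0.09 ± 0.27 (adjusted p = 0.978) and an interval for the fold of 0.654 to 1.36 in the authors' deposited table. For late and early atretic follicles they were 377 and 313, with a log2 difference of 0.27 ± 0.27 (adjusted p = 0.997) in the authors' deposited table. Its implied error of 0.20 in early atretic against healthy follicles was the smallest of the 9 in the authors' deposited table, and its interval for the fold ran from 0.604 to 1.03.

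CDKN1C, the p57 gene, had the largest rise of the 9 in early atretic follicles. Its mean was 258 normalized counts there against 25.4 in healthy follicles in the authors' deposited table. The log2 fold change of 3.34 ± 0.50 had an adjusted p of 4.8e-09 and an interval for the fold of 5.13 to 19.95 in the authors' deposited table. In late atretic follicles the mean was 62.8 against 24.7 in healthy follicles, and the log2 fold change of 1.35 ± 0.73 did not pass (p = 0.063, adjusted p = 0.468) in the authors' deposited table. Late atretic follicles had 66.2 against 260.4 in early atretic ones, a log2 difference of -1.98 ± 0.53 with a p of 0.00018 in the authors' deposited table. The adjusted p of that difference was 0.087 in the authors' deposited table, so the lower level in late atretic follicles did not pass over all genes, although the implied interval for the fold ran from 0.124 to 0.521. The order of the means was early atretic, late atretic and healthy, and late atretic follicles were set apart from neither neighbour by the adjusted p. Set against CDKN1B, the CDKN1C level in the authors' deposited means was 12.8 times higher in early atretic and 2.70 times higher in late atretic follicles than the same ratio in healthy follicles, with no test of the ratio.

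The reference annotation (assembly NDDB_SH_1, used for gene order alone) places CDKN1C between SLC22A18 and KCNQ1, with PHLDA2 and TRPM5 as the next coding genes on either side. In human and mouse this is an imprinted domain, in which CDKN1C, PHLDA2, SLC22A18 and KCNQ1 are expressed mainly from the maternal copy in some tissues. Neighbours were looked up after the values of the 9 genes had been seen. KCNQ1, a potassium channel gene, had a mean of 11.3 in early atretic follicles against 73.9 in healthy ones and fell by 2.71 ± 0.63 on the log2 scale (adjusted p = 0.00044) in the authors' deposited table. PHLDA2, known in the mouse as a brake on placental growth, had 13.9 in early atretic and 64.6 in healthy follicles and fell by 2.23 ± 0.76 (adjusted p = 0.031) in the authors' deposited table. Both called neighbours therefore changed in the opposite direction to CDKN1C. In late atretic follicles KCNQ1 stood at 61.5 against 72.0 in healthy ones, a log2 fold change of -0.23 ± 0.87 (adjusted p = 0.978) in the authors' deposited table. Between late and early atretic follicles KCNQ1 had 64.2 and 11.4, a log2 difference of 2.49 ± 0.90 with a p of 0.0054 that did not pass (adjusted p = 0.527) in the authors' deposited table. SLC22A18 and TRPM5 had means of at most 7.79 in these groups and were not called in the authors' deposited tables. Over all 9 genes, 36 coding neighbours were looked up and 31 carried a p-value; 4 of the 31 were called in early atretic against healthy follicles, a share like the 12.9% of all genes, and 0 of 31 in late atretic against healthy follicles in the authors' deposited tables. The other called neighbours were PARP11 beside CCND2, at a log2 fold change of -0.54 ± 0.19, and TSPAN31 beside CDK4, at -0.50 ± 0.14, in the authors' deposited table. PARP11 had an adjusted p of 0.137 after scaling to equal totals.

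**Figure D3:**
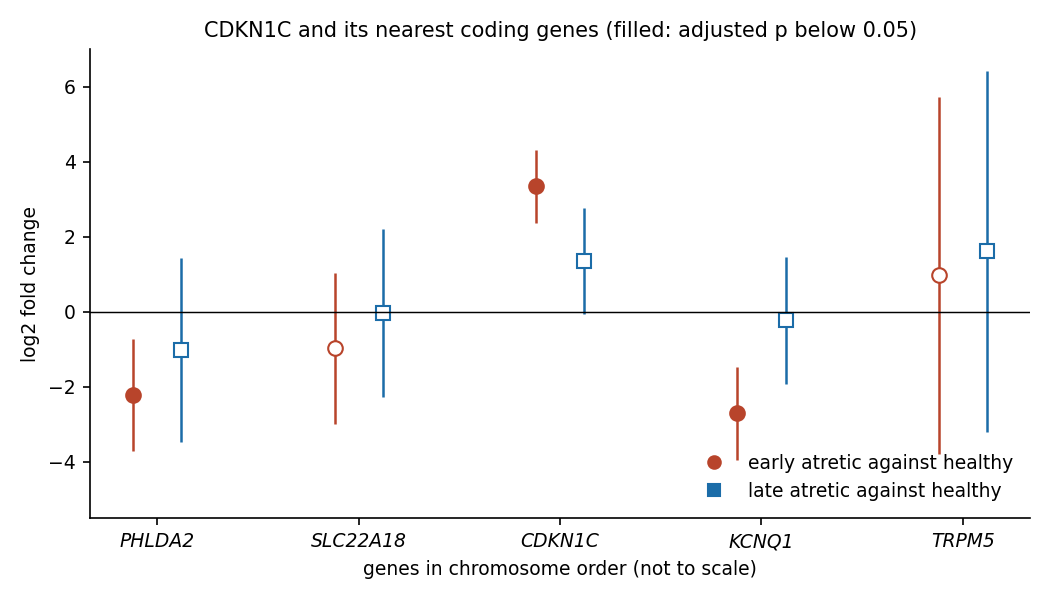
Log2 fold change (vertical axis) of CDKN1C and its 2 nearest coding genes on each side in chromosome order, for early atretic (red circles) and late atretic (blue squares) against healthy follicles, with 95% intervals implied by the deposited p; filled points passed an adjusted p of 0.05. CDKN1C at 3.34 lies above 0 and KCNQ1 at -2.71 and PHLDA2 at -2.23 lie below it in early atretic follicles.

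The implied error of the log2 fold change differed between the genes. It is the error of the authors' test under the normal assumption and not a spread measured between samples. Counting error of the authors' deposited means would give CCND2 a standard error of 0.018 on the log2 fold change of early atretic against healthy follicles, against the implied 0.48. Among 605 genes with a mean within 2 times that of CCND2 the median implied error was 0.20, and 96.2% of them had a smaller one, from the authors' deposited table. CDKN1A was similar, with an implied error larger than that of 92.7% of genes of like mean, and CDKN1C exceeded 90.3% of such genes in the authors' deposited table. CCND3 and CDKN1B lay nearer the middle, larger than 59.7% and 23.3% of genes of like mean in the authors' deposited table. CDK2, CDK4 and CDK6 exceeded 81.2%, 70.2% and 81.9% of such genes. Genes were matched on the average of both group means. For CDKN1C these means lay far apart, at 258 and 25.4, and its counting error alone was 0.17. In late atretic against healthy follicles CCND2 exceeded 92.6% and CDKN1A 93.8% of such genes, and CCND3 25.9%, from the authors' deposited table. For CCND1 the counting error of 0.88 was much nearer to the implied 1.44 in the authors' deposited table. Spread between the samples of a group was not analysed here, since the deposited values are group means.

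**Figure D4:**
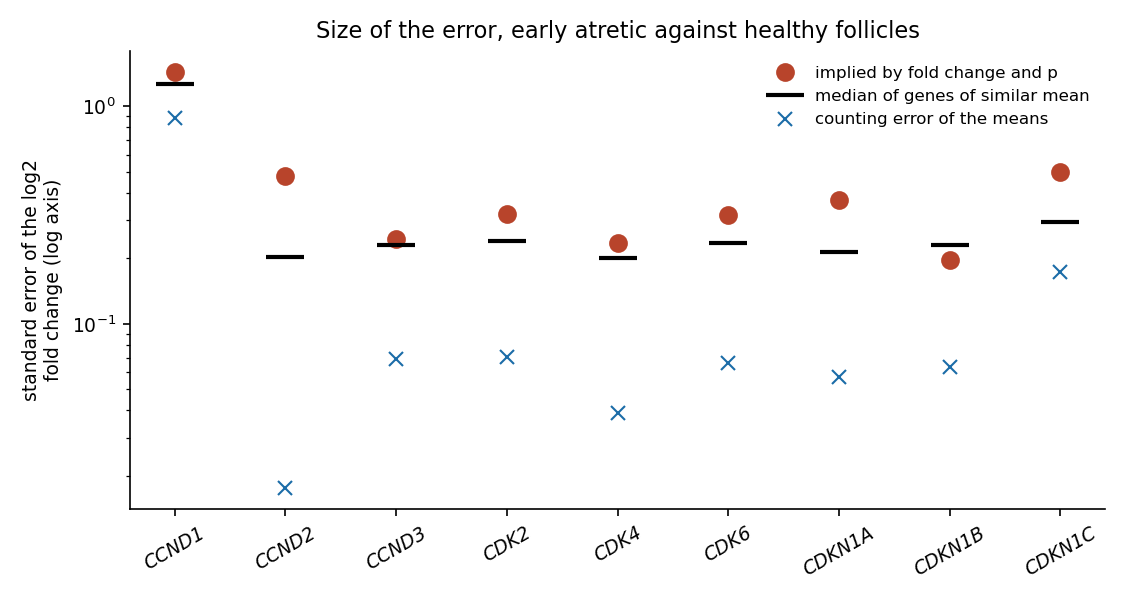
Standard error of the log2 fold change of early atretic against healthy follicles (vertical axis, log scale) for each gene: implied by the p that the authors deposited (red circles), the median over genes with a mean within 2 times its own (black bars), and the counting error of both means (blue crosses). CCND2 shows the widest gap between counting error, 0.018, and implied error, 0.48.

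Around the 9 genes, called genes of INK4, RB, E2F and CDC25 were lower in early atretic follicles. Counts in the lists that follow stand beside 8.59% of all tested genes called higher and 4.35% called lower in early atretic follicles, and 3.98% and 0.397% in late atretic ones, in the authors' deposited tables. Counts at an unadjusted p below 0.05 stand beside 23.6% of all tested genes in early and 12.2% in late atretic follicles, both directions together. The INK4 family inhibits CDK4 and CDK6, and 3 of its 4 genes were found. CDKN2C, the p18 gene, had a mean of 174 in early atretic follicles against 379 in healthy ones and fell by 1.12 ± 0.30 on the log2 scale (adjusted p = 0.0026) in the authors' deposited table. CDKN2B, the p15 gene, singled out after its values were seen, had 287 in early atretic and 62.0 in healthy follicles and was not called, at a log2 fold change of 2.21 ± 1.51 (adjusted p = 0.410) in the authors' deposited table. Its late over early atretic log2 difference of -2.65 ± 0.94 had a p of 0.0047 and an adjusted p of 0.516 in the authors' deposited table, so its means peaked in early atretic follicles as those of CDKN1C did, without passing. Of 7 E and A cyclins and CDC25 phosphatases, 1 was lower and 0 higher, with a median log2 fold change of -0.85 beside 0.02 over all genes tested in the authors' deposited table; 4 were lower at an unadjusted p below 0.05. The 1 called was CDC25B, a phosphatase that activates kinases of the cycle, at a mean of 425 in early atretic against 1246 in healthy follicles and a log2 fold change of -1.55 ± 0.38 (adjusted p = 0.00097) in the authors' deposited table.

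The RB family with E2F and DP factors had 3 of 13 members called in early atretic follicles, each as lower, against 4.35% of all genes tested, and the authors' deposited table gave the list a median log2 fold change of -0.32. RB1, the retinoblastoma gene and main target of the D cyclin kinases, fell by 0.62 ± 0.21 (adjusted p = 0.030) in the authors' deposited table. Its relative RBL1, which encodes p107, fell by 1.05 ± 0.37 and E2F6, a repressive E2F, fell by 1.02 ± 0.24 in the authors' deposited table. After scaling to equal totals E2F6 alone of the 3 was still called, and RB1 and RBL1 had adjusted p of 0.099 and 0.079. Among 18 E2F target genes of S phase entry 0 were called, with a median log2 fold change of -0.40 and 2 lower at an unadjusted p below 0.05, in the authors' deposited table of early atretic against healthy follicles. Of all genes tested, 23.6% had such a p in either direction. The 6 genes of MuvB and B-MYB and the 3 of the CDK activating kinase, which switches on the G1 kinases by phosphorylation, had 0 called and 0 at an unadjusted p below 0.05, with medians of -0.19 and -0.12 in that authors' deposited table. Of 14 genes of D cyclin and p27 turnover, 1 was higher, a share near the 8.59% of all genes tested. This was FBXO31, which marks cyclin D1 for destruction after DNA damage, rose by 0.60 ± 0.21 (adjusted p = 0.038) in the authors' deposited table.

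Of 19 other cyclin genes tested, 1 was higher and 1 lower in early atretic follicles, CCNJ at a log2 fold change of 0.61 ± 0.22 and the mitotic cyclin gene CCNB2 at -0.83 ± 0.29 in the authors' deposited table. CCNB2 had an adjusted p of 0.079 after scaling to equal totals. Of 18 other cyclin-dependent kinase genes, 1 was higher and 1 lower, and the calls in both lists are near the 12.9% of all genes tested. CDK14, a kinase of WNT signalling, rose by 1.74 ± 0.27 (adjusted p = 1.4e-08) and CDK1, the mitotic kinase, fell by 0.93 ± 0.29 (adjusted p = 0.016) in the authors' deposited table. Of 13 proliferation markers the authors' deposited table had 6 as lower and 0 as higher, where 4.35% of all genes tested were lower, with -0.86 as the median log2 fold change. At an unadjusted p below 0.05, 12 of the 13 were lower, and all 13 stood below 0 in the authors' deposited table. FOXM1, a transcription factor of mitotic genes, stood at -1.08 ± 0.28 and TOP2A, a topoisomerase of dividing cells, at -1.0 ± 0.35 in the authors' deposited table. After scaling to equal totals 3 of the 13 were called, FOXM1 among them, and TOP2A had an adjusted p of 0.070. In late atretic follicles 1 of these 13, FOXM1, was lower, at a log2 fold change of -0.88 ± 0.26 (adjusted p = 0.019), and the list median was -0.49 in the authors' deposited table. No gene of the INK4, cyclin E and A, RB and E2F, MuvB, activating kinase, turnover, S phase or other cyclin and kinase lists was called in late atretic against healthy follicles in the authors' deposited table. At an unadjusted p below 0.05 these lists held 1 higher and 11 lower entries. In the order named they held 3, 7, 13, 6, 3, 14, 18, 19 and 18 tested entries. CCNE1 and CCNE2 stand both in the cyclin E and A list and in the S phase list. Of all genes tested, 12.2% had such a p in either direction, so these entries are not read as a fall of the lists.

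**Figure D5:**
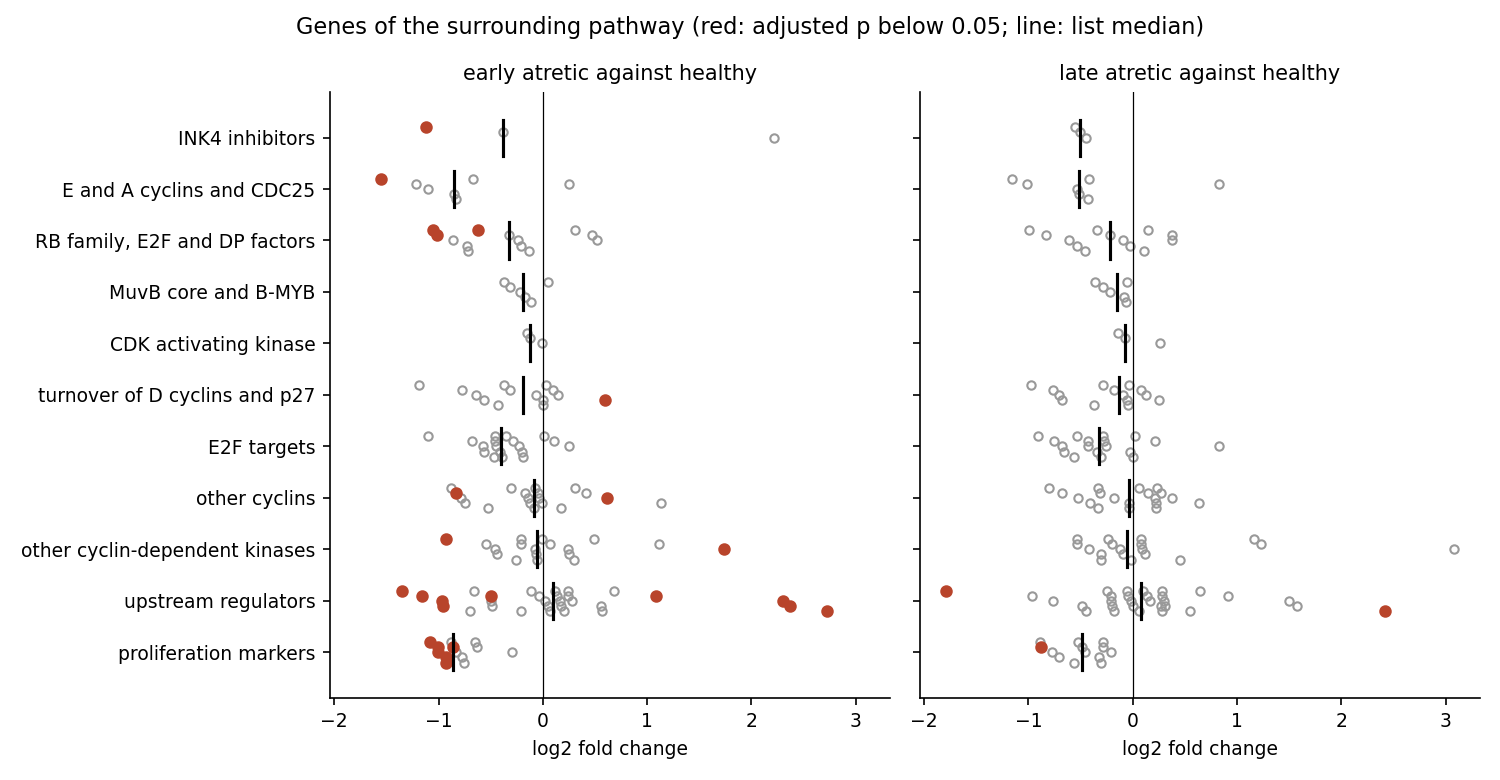
Log2 fold change (horizontal axis) of genes in lists around the G1 machinery, for early atretic (left) and late atretic (right) against healthy follicles; red points passed an adjusted p of 0.05 and the black line is the list median. The median of the proliferation markers lies at -0.86 in early and -0.49 in late atretic follicles, and that of the upstream regulators at 0.10 and 0.08.

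Upstream regulators of these genes, 30 in number, held 4 higher and 5 lower members in early atretic follicles, and 1 higher and 1 lower in late atretic ones, in the authors' deposited tables. The 4 and the 1 higher stand beside 8.59% and 3.98% of all genes tested, and the 5 and the 1 lower beside 4.35% and 0.397%. After scaling to equal totals the calls in early atretic follicles numbered 8. FSHR, the receptor whose signal raises cyclin D2 in rodent granulosa cells, had 2560 normalized counts in early atretic and 5720 in healthy follicles and fell by 1.16 ± 0.21 (adjusted p = 1.5e-06) in the authors' deposited table. ESR2, the estrogen receptor beta gene, fell by 1.35 ± 0.40 in early and by 1.80 ± 0.46 in late atretic follicles (adjusted p = 0.0093 and 0.0044) in the authors' deposited tables. SMAD2, which carries activin and TGF-beta signals, fell by 0.97 ± 0.25 and the YAP partner gene WWTR1 by 0.95 ± 0.24 in the authors' deposited table of early atretic follicles. The WNT effector gene LEF1 rose by 2.37 ± 0.45 and the MYC family gene MYCN by 2.73 ± 0.70 in the same authors' deposited table. KLF4, a factor known to raise p21 transcription, had 61.3 in late atretic and 11.6 in healthy follicles and rose by 2.41 ± 0.75 (adjusted p = 0.035) in the authors' deposited table.

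The genes nearest to each called member, by the distance between their pairs of log2 fold changes in early and late atretic against healthy follicles, were sought among 8495 named genes with a mean of at least 196.5 in some group. For CCND2 these were SEMA6A, PLPP3 and MELTF, at distances of 0.11 to 0.13 log2 units from the authors' deposited values. For CCND3 they were FYN, MFSD12 and HIVEP2, at 0.05 to 0.07, and for CDKN1A they were NUDT4, CACHD1 and ABHD17C, at 0.03 to 0.04, from the authors' deposited values. CDKN1C had no neighbour as close: WNT5A, VGF and TRIL lay at 0.22 to 0.36 from the authors' deposited values. WNT5A, a secreted WNT ligand, had 338 normalized counts in early atretic and 38.0 in healthy follicles, and its log2 fold change was 3.15 with an adjusted p of 2.7e-05, by the authors' deposited table. This likeness rests on group means alone, and the implied errors of the members exceed these distances. The distances were not set against how many genes lie at fold changes as large as those of CDKN1C. PLPP3 and VGF were not called in early atretic against healthy follicles (adjusted p = 0.209 and 0.152 in the authors' deposited table), and the other genes named were.

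Markers of the labelled cell type and of other cells moved with the same groups, and their part in the results above was not tested. All 10 granulosa markers were found and none was at 0, and their authors' deposited means summed to 164984 in early atretic against 658959.7 in healthy and 296954 in late atretic against 639836 in healthy follicles. Of these 10, 7 were lower in early and 0 in late atretic follicles, 3 at an unadjusted p below 0.05, in the authors' deposited tables. INHA and INHBA made up most of each sum, at 321220 and 270038 in healthy follicles of the early atretic comparison, and INHBA was not called. The median log2 fold change of the 10 was -1.22 in early and -0.88 in late atretic follicles, from the authors' deposited tables. Macrophage markers had 6 of 11 tested genes higher in early and 6 of 10 in late atretic follicles, with summed means of 3149 against 422 and 6114 against 410.3 in the authors' deposited tables. Stromal markers had 7 of 9 higher in early and 5 of 9 in late atretic follicles, with summed means of 16768 against 3621 and 21879.9 against 3511 in the authors' deposited tables. Endothelial, smooth muscle and neutrophil markers had 2 of 8, 2 of 5 and 1 of 3 tested genes higher in early and 1 of 8, 2 of 5 and 2 of 5 in late atretic follicles in the authors' deposited tables. Deposited means summed to 3005 against 2023 (endothelial), 4891 against 5108 (smooth muscle) and 647 against 48.3 (neutrophil) in early atretic against healthy follicles. For late atretic against healthy follicles the sums, in that order, were 1764 against 1967, 5940 against 4964 and 323 against 47.1. Most of the neutrophil sum in early atretic against healthy follicles came from S100A8 and S100A9, which carried no p there. Their deposited means were 201 and 349 in early atretic against 12.6 and 19.7 in healthy follicles. Of all genes tested, 8.59% were higher and 4.35% lower in early, and 3.98% and 0.397% in late atretic follicles. At an unadjusted p below 0.05 the shares were 23.6% in early and 12.2% in late atretic follicles, both directions together. Theca, lymphocyte and oocyte markers had 0 called in either of the authors' deposited tables, with 3, 0 and 0 at an unadjusted p below 0.05 in early and 0 of each in late atretic follicles.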

How the data were processed

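Per the labels' protocols, granulosa cell RNA was extracted with Trizol and sequenced from Illumina libraries. Each of the 3 tables holds 21253 rows, of which 452 repeat another row and were dropped. The read count columns hold 1 value per group with decimals, per the file headers, and were taken for means of normalized read counts per group. This signal was scaled separately in each deposited table. The deposited log2 fold change is that of the first group over the second, per the file headers, and matched the log2 ratio of the means to within 0.0098 at means above 50. Each p-value, raw or adjusted, is as deposited. The test tool, the read counter and the annotation were not given in the sources used here. The submitters' processing notes list Bowtie 0.12.2, mm8 and mm9 without a role; both builds are of mouse and the animals were buffalo. Since no values per sample were used, no test was run anew, and 0 per-sample columns were left out. A p adjusted again by Benjamini-Hochberg over unique genes was within a relative difference of 7.7e-05 of the deposited one.

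Python 3.11.15 with pandas 2.3.3 and scipy 1.17.1 computed the implied standard error. This is the absolute log2 fold change over the two-sided normal z of the deposited p, which assumes such a test. The formula was tested on simulated data whose p came from the same normal test. That check covers the arithmetic and not the assumption. Genes of similar mean lie within 2 times the mean of a member, taken as the average of both group means. The members and lists were chosen with earlier results of these data known. Named are the 9 members and the 3 genes nearest in pattern to each called member. Per list and comparison up to 5 called genes with the smallest adjusted p are also named. This was not kept for the proliferation markers in early atretic follicles. There UBE2C and CENPF had smaller adjusted p (0.027 and 0.030) than TOP2A (0.033) and were left out above. Others are said to be chosen later. Of 210 genes in 11 pathway and 9 marker lists 205 were found, 1 of them (CYP19A1) under a LOC number through the RefSeq table of assembly NDDB_SH_1. The order of neighbouring genes was taken from the same table; no coordinates are printed and no sequences were used. How reads shared between related genes were counted is unknown. The result of 1 gene is not reported here.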

Additional observations from a re-analysis of the deposited data

How the results depend on the processing

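The same 4 members were called in early atretic against healthy follicles at an adjusted p of 0.1, with a log2 fold change of at least 1 required, among genes with a mean of at least 10, with repeated rows kept, and under both other scalings. At an adjusted p of 0.01 they were 3, without CDKN1A. CCND3 was the 1 member called in late atretic against healthy follicles under all of these settings. Between late and early atretic follicles an adjusted p of 0.1 gave 1 call, CDKN1C at -1.98, where the other settings gave 0. Scaling to equal totals shifted log2 fold changes by 0.11, 0.10 and -0.03 in the 3 comparisons. In late atretic against healthy follicles CDK4 then stood at 0.087 and CDKN1B at 0.014, and CDK4 at 0.0136 when centred on the median gene, each with the sign turned and none called. A pseudocount of 10 moved CCND1 to log2 fold changes of 0.72 in early and 0.74 in late atretic follicles. Of 240 values of single members under these settings, 233 kept their direction and side of the threshold or moved by less than 1 implied error. Only scalings and pseudocounts alter the log2 fold change, so under the other settings its direction could not change. The 4 called members all had log2 fold changes above 1 in size, so that requirement and the looser threshold of 0.1 could not remove them. The scaling of list calls was added after the data had been seen: RB family and E2F calls numbered 1 in place of 3 under both scalings, other cyclins 1 in place of 2, and proliferation markers 4 and 3 in place of 6. No paired analysis was possible because the columns hold group means, with no replicate number; for the same reason leaving out each replicate, DESeq2 and edgeR were not run. CCND1 is limited by about 3 reads in healthy follicles.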
